A study of Mus musculus with 1505 samples.

Results

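The clustered protocadherins are neuronal cell adhesion proteins encoded in tandem on mouse chromosome 18, in an α, a β and a γ cluster. Every count with a symbol of these clusters (Pcdha or Pcdhac, Pcdhb, and Pcdhga, Pcdhgb or Pcdhgc, each followed by a number) was looked up among the 42381 genes of the exonic count table, which leaves spike-in rows aside. The lookup found 1 member, Pcdha1, of the 57 symbols that the GENCODE vM21 annotation lists for the 3 clusters (13 α, 22 β and 22 γ). The other 56 symbols were not analysed here, so the number of isoforms per cell, the β genes and the γ genes have no value below. The description therefore rests on Pcdha1 and, for context, on Gm42416, a read-through gene model that spans the α and γ clusters and does not meet the symbol rule.

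Neurons of primary motor cortex were patched in acute slices of adult mice, either wild-type C57Bl/6 or carrying a Cre driver with the Ai9 reporter, and the aspirated contents of each cell, in most cases with nuclear material, were sequenced by Patch-seq. Patch-seq joins a whole-cell recording to full-length Smart-seq2 RNA sequencing of the same cell, and the transcriptomic type (t-type) is the label that the study gave each cell from its RNA. At 25 °C, 815 inhibitory and 413 excitatory neurons had a t-type and 92 cells had none. At 34 °C, with blockers of fast glutamatergic and GABAergic transmission in the bath, 177 of 185 cells had one. The inhibitory families were Pvalb and Sst, which arise in the medial ganglionic eminence (MGE), and Vip, Lamp5 and Sncg. The last were grouped here as families of the caudal ganglionic eminence (CGE). The study describes the Lamp5 Lhx6 type as putatively MGE-derived, and any such cells stayed in the CGE group. The excitatory families were the intratelencephalic (IT), extratelencephalic (ET, t-types named PT), corticothalamic (CT), layer 6b (L6b) and near-projecting (NP) neurons. Each GEO sample was 1 cell and the labels tie no cell to an animal, so each group counted as 1 sample and no test between groups was run. Intervals of levels give the counting error of reads only. Intervals of shares count cells as if they were independent draws. Cells of a group share animals and recording days that the intervals do not take in, and values by day or period are given as descriptions. The Cre lines decided which neurons could be targeted, and the labels do not give the line of a cell.

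In mammals, each α and γ transcript joins 1 of many variable first exons, which encodes the extracellular, transmembrane and proximal cytoplasmic part, to 3 constant exons shared within the cluster. Single neurons choose among alternate promoters, largely at random, and matching sets of isoforms on touching membranes are recognised as self, which serves dendrite self-avoidance. CTCF and cohesin bring the chosen promoter to distal enhancers, and DNA methylation silences the others.

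What the Pcdha1 count can hold follows from its exons. In GENCODE vM21 (GRCm38, the assembly of the mm10 build named for the files), Pcdha1 (ENSMUSG00000103442.5) lies on the plus strand of chromosome 18, from 36930184 to 37187661, with 4 exons and 5353 exonic bases. The first exon, from 36930184 to 36932672 (2489 bases), is its own and shares no base with another member. The second (37156155 to 37156213, 59 bases), the third (37159265 to 37159353, 89 bases) and the fourth (37184946 to 37187661, 2716 bases) are the constant exons, and each is shared with all 13 other α gene entries. Of the Pcdha1 exonic bases, 2864 were thus common to the α cluster. How the authors assigned reads from exons shared between genes is not given in the sources used here. A read counted under Pcdha1 may come from the Pcdha1 variable exon or from the constant exons of any α isoform, and these cannot be told apart in the counts.

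**Figure D1:**
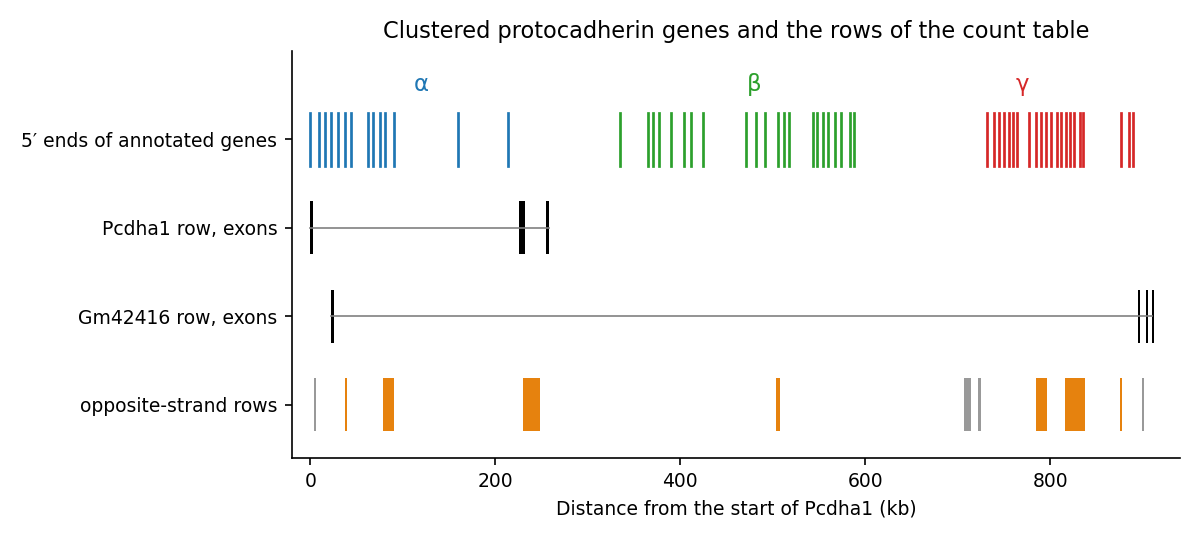
Map of the clustered protocadherin region by distance from the start of Pcdha1 (kb), with the 5′ ends of the annotated α, β and γ genes, the exons of Pcdha1 and Gm42416 (black) and the spans of the genes counted on the opposite strand; narrow features are drawn wider than to scale. Of the opposite-strand genes, orange marks the 7 whose exons overlap a protocadherin exon and grey the others; the last 3 Pcdha1 exons lie beyond all α variable exons.

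Gm42416 (plus strand, 36952741 to 37840200, 2856 exonic bases) has a like structure. Its first exon (2410 bases) is shared with Pcdha4, and its last 3 exons (59, 89 and 298 bases) are shared with all 22 γ genes. In the annotation, 38 protein-coding genes of the α and γ clusters were joined to each other by shared exonic bases, and 2 of them, Pcdha1 and Gm42416, had a count. Across the genome, 203 groups of 3 or more coding genes shared exonic bases in this way, and 447 of their 682 genes (65.5%) had a count, against 95.1% of 20831 coding genes that shared none. The 9 Ugt1a genes, which also join variable first exons to common ones, had 1 count, under Ugt1a10. The 22 β genes have 1 exon each and are not among the 38 joined genes, and the lookup found none of them. Why a gene had no count was not tested.

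Pcdha1 counts were present in every family. Over all cells with a t-type, 557118 reads gave 280.3 CPM (summed counts of the gene, scaled to 1000000 exonic counts without spike-ins; 95% Poisson interval 279.6 to 281.1), which ranked 465 among the genes. Between single cells the level ran from 0 to 1909 CPM, with a median of 207.3 and quartiles of 35.6 and 410.5 CPM. A read was found in 1072 of the 1228 cells (87.3%). After each cell was thinned to 200000 counts, which left out 53 inhibitory and 18 excitatory shallower cells, 958 of 1157 cells (82.8%, exact binomial 95% interval 80.5 to 84.9%) had a read. The share in 362 genes of 0.8 to 1.2 times its CPM had a median of 82.4% and quartiles of 77.8 and 87.4%. The share of cells with a Pcdha1 read was thus near the middle of genes at its level.

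Inhibitory neurons had more Pcdha1 than excitatory neurons on average, but the cells of both classes overlapped over nearly the whole range. Inhibitory cells ran from 0 over a median of 255.4 to 1909 CPM (quartiles 38.9 and 462.2), and excitatory cells from 0 over a median of 162.9 to 1675 CPM (quartiles 28.9 and 321.9). The summed level was 318.8 CPM (317.8 to 319.8) in inhibitory and 211.9 CPM (210.9 to 213.0) in excitatory neurons, a log2 ratio of 0.59. This was within 2-fold: 0 of 1 member was past 2-fold, where 18.2% of the 18231 genes with at least 1 CPM in either class were, and the median log2 ratio of all these genes was -0.01. Of the recording days with cells of both classes, the inhibitory level was the higher on 66 and the lower on 39. The thinned share with a read was 83.7% (80.9 to 86.3%) in inhibitory and 81.01% (76.8 to 84.8%) in excitatory cells, and these intervals overlapped.

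Summed astrocyte and oligodendrocyte markers also differed by class and were higher in excitatory neurons, whereas summed microglia markers were close in both. The summed level of 8 astrocyte markers was 391.8 CPM in inhibitory and 760.8 CPM in excitatory neurons, that of 7 oligodendrocyte markers 618.4 and 1063 CPM, and that of 8 microglia markers 798.8 and 742.7 CPM. None of these markers was at 0 in either class, and their part in the Pcdha1 level was not tested. In thinned cells, the Pearson correlation of log2(CPM + 1) between Pcdha1 and the summed astrocyte markers was -0.03 over 1157 cells. It was -0.02 for oligodendrocyte and 0.05 for microglia markers. Within the larger families it ran from -0.09 (Pvalb) to 0.26 (CT) for astrocyte markers. For oligodendrocyte markers it ran from -0.09 (CT) to 0.15 (Lamp5), and for microglia markers from -0.11 (Vip) to 0.22 (CT). The cells share batches and animals. The t-type labels were given from the RNA of the same cells, so marker levels by label are no check of the labels. In these groups 4 inhibitory markers summed to 4609 CPM in inhibitory and 41.1 CPM in excitatory neurons. The 4 excitatory markers summed to 14.5 and 926.1 CPM.

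**Figure D2:**
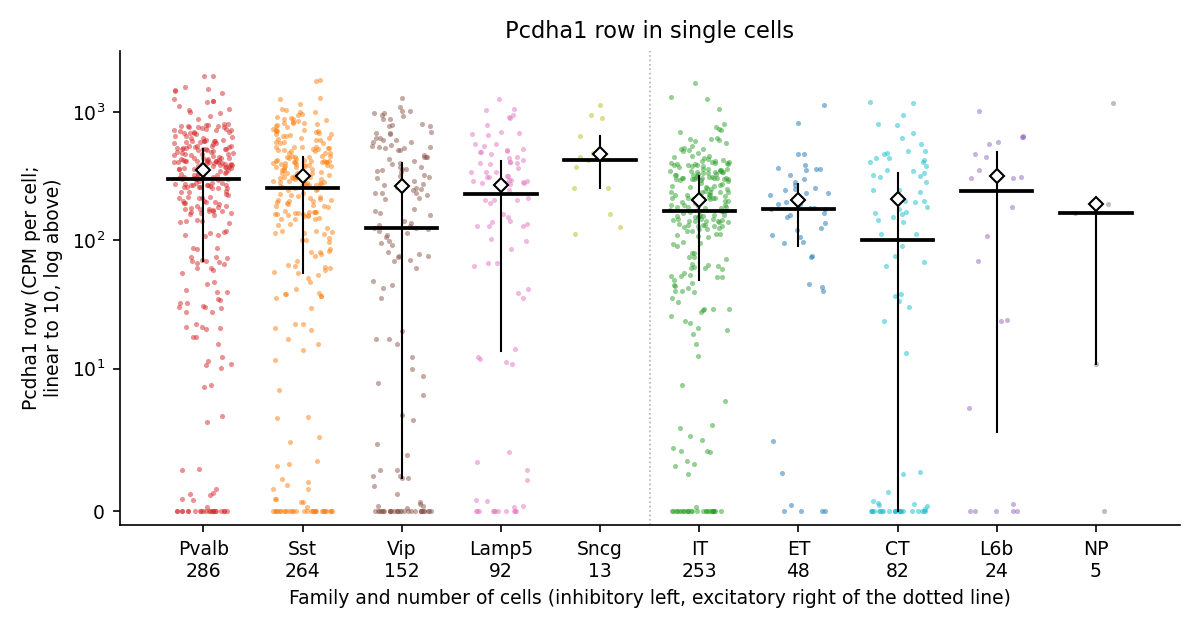
Pcdha1 level in each cell with a t-type and at least 10000 counts (CPM; axis linear up to 10 and logarithmic above), by family, with the number of cells under each name. Bars mark the median cell, vertical lines the quartiles and diamonds the CPM of summed counts; every family but Sncg holds cells at or near 0, and the 13 Sncg cells lie between 111.0 and 1127 CPM.

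By family, the order of the summed Pcdha1 level was Pvalb, L6b, Sst, Lamp5, Vip, CT, IT and ET among families of at least 20 cells. Pvalb interneurons, which include the fast-spiking basket cells, had 352.9 CPM (286 cells, cell median 297.6, quartiles 69.3 and 510.0). L6b neurons had 314.8 CPM (24 cells, cell median 243.2) and Sst interneurons 314.3 CPM (272 cells, cell median 253.4). Between these last families the counting intervals overlapped.

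Lower levels followed in Lamp5 cells, which include neurogliaform cells, with 271.4 CPM (92 cells, cell median 228.9), and in Vip cells with 265.8 CPM (152 cells, cell median 123.7). The 3 large excitatory families lay close together. CT neurons had 210.0 CPM (83 cells), IT neurons 205.3 CPM (253 cells) and ET neurons 204.4 CPM (48 cells). For every pair of neighbours in this order, the median cell of the higher family lay within the quartiles of the next. Neighbours were picked by closeness of level and the quartiles are wide, so this check could hardly fail. It shows only that the cells of neighbouring families overlapped.

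The small families lay at both ends. Sncg cells had 471.7 CPM (13 cells, quartiles 254.0 and 650.2), and NP cells had 193.1 CPM (5 cells, 1 of which held 50.7% of the reads). Against all other cells with a t-type, none of the 7 families with more than 24 cells was past 2-fold. The log2 ratios were 0.45 for Pvalb (16.8% of genes past 2-fold), 0.22 for Sst (14.5%), -0.08 for Vip (19.8%), -0.05 for Lamp5 (24.5%), -0.54 for IT (16.7%), -0.48 for ET (28.5%) and -0.44 for CT (30.4%). In CT and Lamp5 cells the median of all genes stood at -0.26 and -0.13 in the same comparisons. The 25 °C cells were also split by recording period, into the last calendar year of the 25 °C recordings and the time before it. The sign was turned before that year for Vip (1.16, 6 cells), Lamp5 (0.41, 8 cells) and CT (0.71, 1 cell).

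Families of like mean level differed in how the reads were spread over cells. CT and IT neurons had nearly the same summed level (210.0 and 205.3 CPM), but the cell median was 100.9 CPM in CT and 168.5 CPM in IT neurons, and the lower quartile was 0 and 49.1 CPM. After thinning, 51 of 82 CT cells (62.2%, 50.8 to 72.7%) and 210 of 240 IT cells (87.5%, 82.6 to 91.4%) had a read. At 500000 counts per cell the shares were 71.8% (60.5 to 81.4%) in CT and 89.1% (83.9 to 93.01%) in IT cells. Recording period moved with this pair, since 82 of 83 CT cells but 88 of 253 IT cells were recorded in the last calendar year. Within that year the summed level was 209.2 CPM in CT and 242.0 CPM in IT neurons, the cell median 90.7 and 168.4 CPM, and the thinned share 61.7% (50.3 to 72.3%) in CT and 86.4% (77.4 to 92.8%) in IT cells. On days with cells of both families, the CT level was the higher on 13 and the lower on 15.

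Among interneurons, Vip cells had a read in 73.2% (65.3 to 80.1%) of thinned cells, against 89.7% (85.5 to 93.1%) of Pvalb cells, whose summed level was also higher, and 83.5% (78.2 to 88.03%) of Sst cells. Lamp5 cells, of a summed level near that of Vip cells, had a read in 81.1% (71.5 to 88.6%), which overlapped the interval of Vip cells. Among Vip cells with at least 1000000 counts, 20 of 79 (25.3%) lay under 10 CPM and 19 (24.1%) at 500 CPM or more. Among Pvalb cells of that depth, 16 of 206 (7.77%) lay under 10 CPM and 52 (25.2%) at 500 CPM or more. At this depth 10 of 53 CT cells (18.9%, 9.44 to 31.97%) and 9 of 139 IT cells (6.47%, 3.00 to 11.9%) had no Pcdha1 read, so cells without a read were not all shallow. In CT cells the microglia markers summed to 308.3 CPM, against 933.1 CPM in IT cells, and oligodendrocyte markers to 1426 against 718.2 CPM; their part in the detected share was not tested.

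**Figure D3:**
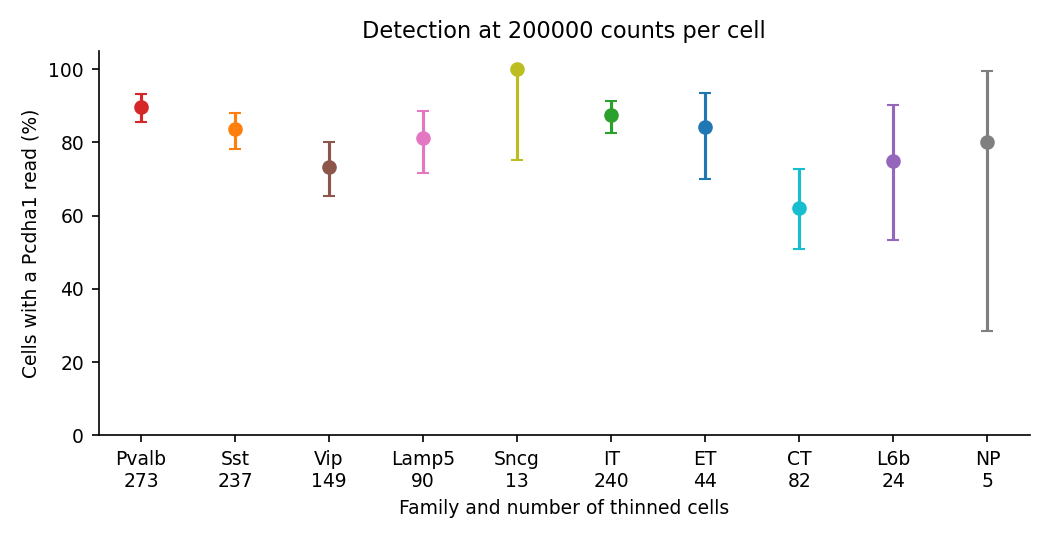
Share of cells with at least 1 Pcdha1 read after thinning each cell to 200000 counts (%), by family, with the number of thinned cells under each name. Error bars are exact binomial 95% intervals, which treat cells as independent. CT (62.2%) is lowest, and Pvalb (89.7%) and IT (87.5%) are highest among families with more than 13 cells.

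Over the 53 t-types with at least 5 cells, Pcdha1 ran from 97.7 CPM in L6 CT Pou3f2 (16 cells) to 737.9 CPM in Sncg Npy2r (5 cells), with a median of 268.9 CPM. The 9 Pvalb t-types formed a narrow band, from 250.1 CPM in Pvalb Vipr2_2 to 503.6 CPM in Pvalb Egfem1, with an SD of 0.34 on the log2(CPM + 1) scale. The 15 Sst t-types were wider (SD 0.66), from 137.3 CPM in Sst Pvalb Etv1 to 628.5 CPM in Sst Htr1a.

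Single cells carried some of these values. In Sst Htr1a, 1 of 6 cells held 83.9% of the reads and the median cell was at 103.6 CPM. In Vip Htr1f, the lowest inhibitory t-type at 122.6 CPM, 1 of 6 cells held 87.4% of the reads and the median cell was at 4.87 CPM. By contrast, in Sst Etv1 (499.6 CPM, 11 cells) the largest share of 1 cell was 19.8%, and the median cell was at 530.0 CPM. All 22 cells of Pvalb Kank4 (439.3 CPM) had a read, with quartiles of 227.9 and 644.4 CPM.

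The excitatory t-types ran from 97.7 CPM to 343.1 CPM in L6 IT_1 (10 cells). L5 PT_1, the most sampled ET t-type, had 120.4 CPM over 31 cells (quartiles 60.03 and 215.2), and L5 PT_4 had 237.9 CPM over 9 cells, with 61.2% of the reads in 1 cell. L6 CT Cpa6 had 226.9 CPM over 65 cells, so the level of CT neurons came mainly from that t-type.

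**Figure D4:**
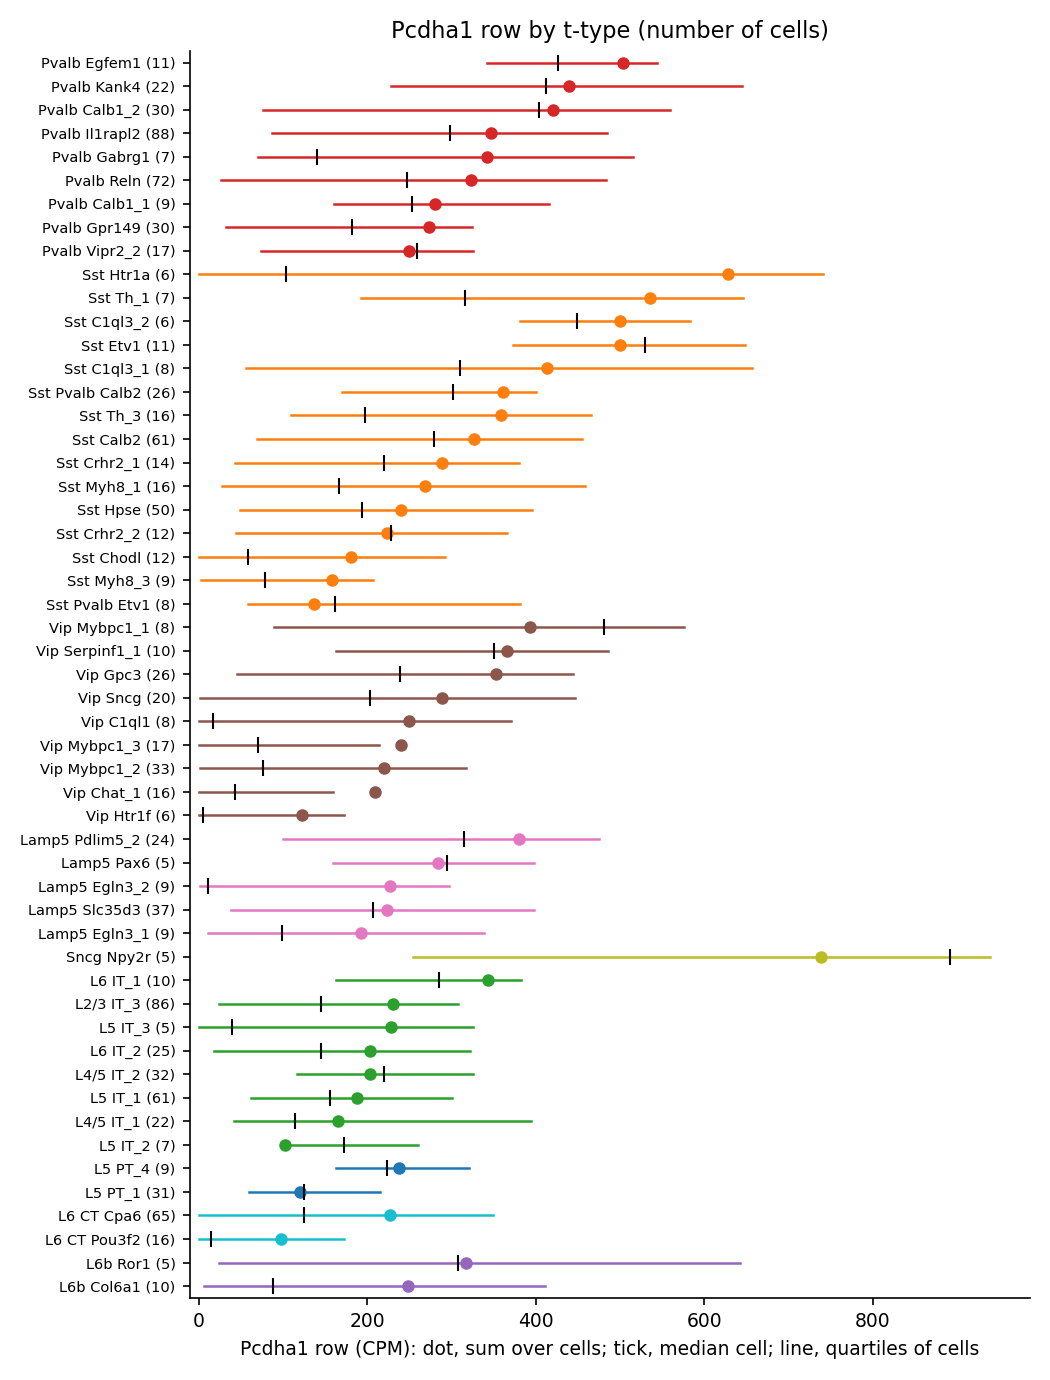
Pcdha1 level of the 53 t-types with at least 5 cells (CPM), grouped by family from Pvalb at the top to L6b at the bottom, with the number of cells in parentheses. Dots are summed counts, ticks the median cell and lines the quartiles of cells; Sncg Npy2r is highest (737.9 CPM) and L6 CT Pou3f2 lowest (97.7 CPM), and the lines of most t-types overlap.

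MGE families (Pvalb and Sst) were set against CGE families (Vip, Sncg and all Lamp5 cells) to compare interneurons by the main origin of their family. Cells ran from 0 over a median of 272.2 to 1909 CPM in MGE families and from 0 over a median of 169.6 to 1287 CPM in CGE families. The summed level was 334.2 CPM in 558 MGE cells and 279.8 CPM in 257 CGE cells, a log2 ratio of 0.26. Here too 0 of 1 member was past 2-fold, where 16.4% of 17362 genes were. MGE cells were higher on 27 of 45 days with both. In the cells recorded before the last calendar year, 18 of them CGE cells, the order was turned (320.5 CPM in MGE and 441.0 CPM in CGE cells), and in the last year it stood as in the whole (341.6 CPM in MGE and 268.5 CPM in CGE cells).

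Gm42416 had another order of families. Per length, the level over all cells with a t-type was 52.4 CPM per kb of exon for Pcdha1 and 182.4 CPM per kb for Gm42416. Among the same families Gm42416 was highest in Vip cells (793.7 CPM), followed by Lamp5 (649.5 CPM), Sst (643.2 CPM), L6b (560.9 CPM), CT (437.3 CPM), IT (433.1 CPM), Pvalb (384.3 CPM) and ET cells (326.7 CPM). In summed counts, Pvalb thus led the order for Pcdha1 and was second to last for Gm42416. On the 37 days with Pvalb and Sst cells, Gm42416 was higher in Pvalb on 19 and lower on 18. Pcdha1 was higher in Pvalb on 26 of these days and lower on 11. For IT against Vip cells, Gm42416 was higher on 6 and lower on 8 days. For MGE against CGE families it was higher on 18 and lower on 27. The Gm42416 order of Pvalb and Sst was thus not seen within days. Both genes were higher in inhibitory than in excitatory neurons (log2 ratio 0.59 for Pcdha1 and 0.41 for Gm42416), whereas MGE against CGE gave 0.26 for Pcdha1 and -0.51 for Gm42416.

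Because both counts come from the same libraries, their quotient does not depend on depth. There were 0.918 Pcdha1 reads per Gm42416 read (0.912 to 0.924) in Pvalb cells and 0.335 (0.332 to 0.338) in Vip cells, a log2 difference of 1.46. The quotient was 0.489 in Sst, 0.418 in Lamp5, 0.474 in IT, 0.626 in ET and 0.480 in CT cells. In cells recorded before the last calendar year it was 0.878 in Pvalb and 0.334 in Vip cells, of which there were only 6. In the last year it was 0.948 in Pvalb and 0.335 in Vip cells. Across t-types it ran from 0.413 (Pvalb Vipr2_2) to 1.23 (Pvalb Kank4) over 9 Pvalb t-types, and from 0.189 (Vip Htr1f) to 0.538 (Vip Mybpc1_1) over 9 Vip t-types, so that 1 Pvalb t-type lay within the Vip range.

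The quotient also split single cells. Of cells with at least 50 reads of both genes together, 114 of 265 Pvalb cells (43.02%) and 15 of 139 Vip cells (10.8%) had more reads of Pcdha1 than of Gm42416. Over all cells with a t-type this share was 25.8% (290 of 1123). The range was not a feature of Pvalb cells alone: 24 of 44 other t-types had a quotient of at least that of the lowest Pvalb t-type. Because exons shared with other genes enter both counts, the quotient cannot be assigned to α against γ isoforms.

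**Figure D5:**
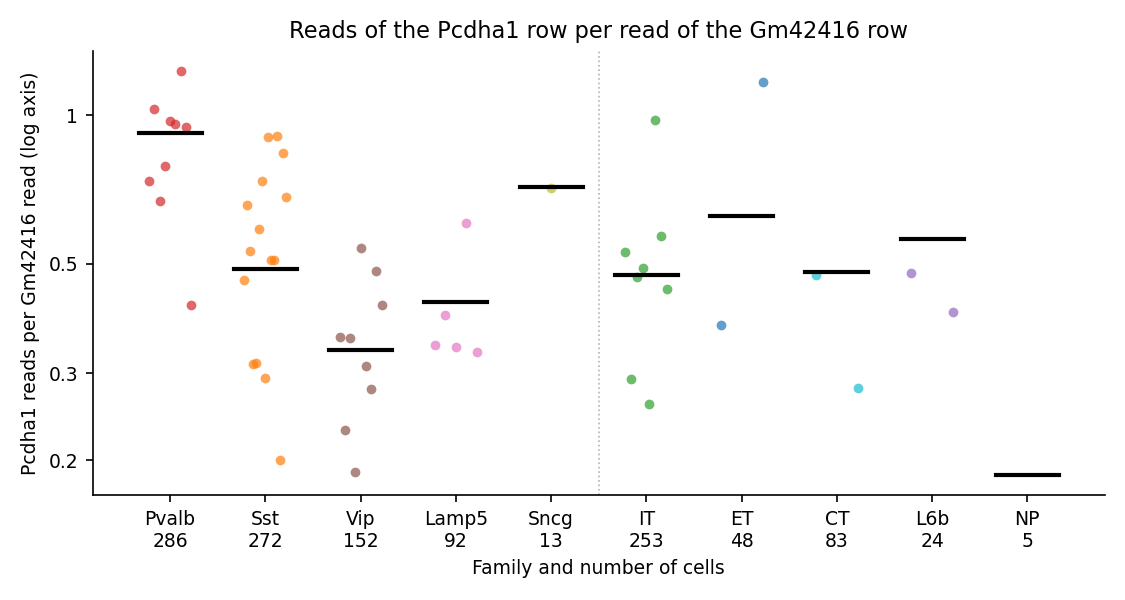
Pcdha1 reads per Gm42416 read (log axis) by family, with the number of cells under each name; bars are the family's summed reads and dots its t-types with at least 5 cells. Pvalb (0.918) is highest and Vip (0.335) lowest among the families with more than 5 cells, and 1 Pvalb t-type lies within the range of the Vip t-types.

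Over single thinned cells, the Pearson correlation of Pcdha1 and Gm42416, on log2(CPM + 1), was 0.29 over 1157 cells, from 0.16 in IT to 0.43 in CT cells. The points are cells thinned to 1 depth that share recording days. Gm42416 was read in 97.7% of thinned cells, and 185 of these 1157 cells had Gm42416 but no Pcdha1 read, while 13 had Pcdha1 alone.

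Besides Pcdha1 and Gm42416, 12 genes between 36930184 and 37841873 had a count, all on the opposite strand. Taf7, which encodes a subunit of the general transcription factor TFIID, was the highest of them, with 19.9 CPM and a read in 27.7% of thinned cells. The exons of 7 of them overlap those of a member: Gm37753 (Pcdha6), Gm10545 (Pcdha11 and Pcdha12), Gm10544 (Pcdha11), Gm37446 (Pcdhb12), Gm37165 (Pcdhga7 and Pcdhga8), Gm26672 (Pcdhga10, Pcdhgb7, Pcdhga11 and Pcdhga12) and BC037039 (Pcdhgc3). The Smart-seq2 libraries do not mark strand, so a read there cannot be told apart from one of the overlapped member. Antisense transcription through variable exons is known from human neurons as a step of α promoter choice. Gm10544 (37159854 to 37178522), however, lies between constant α exons, and Gm37446, Gm37165, Gm26672 and BC037039 overlap β or γ genes. Whether any of the 7 genes is such a transcript was not tested.

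These 7 genes were each read in 0.259 to 15.6% of thinned cells, with Gm10544 the most frequent. Gm10544 was read in 11.7% of inhibitory and 23.04% of excitatory thinned cells, and in summed counts it stood at 6.27 CPM in inhibitory and 8.96 CPM in excitatory neurons. None of the 7 was read in 75.6% of inhibitory and 66.3% of excitatory cells, and no cell had more than 3 of them. Gm10545, which overlaps exons of Pcdha11 and Pcdha12, was read in 45 thinned cells. Of the thinned cells with a read of each of the 7 genes, 84.4% (BC037039) to 100% (Gm37753, Gm10545 and Gm37165) also had a Pcdha1 read, beside 82.8% of all thinned cells.

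The genes whose t-type pattern was most like that of Pcdha1 were found by the Pearson correlation of log2(CPM + 1) over the 53 t-types, among 10620 genes with a mean of at least 10 CPM. They were Snhg11 (0.66), Gm28635 (0.64), Dus3l (0.64), Atp1b1 (0.62) and Leng8 (0.61). Gm42416 ranked 733 (0.35), and the most opposite pattern was that of Gm6180 (-0.66). These values describe 53 points that share libraries and days, and the rule for likeness was chosen after the data were seen.

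Regulators of clustered protocadherin promoters were compared between the same classes. Of 15 listed regulators (CTCF, cohesin and its loader and release factor, Smchd1, Setdb1, and DNA methylation enzymes), 14 passed the minimum of 1 CPM and 0 were past 2-fold in inhibitory against excitatory neurons (18.2% of all genes), with a median log2 ratio of 0.03. Tet3, which oxidises 5-methylcytosine, had 83.1 CPM in inhibitory and 143.5 CPM in excitatory neurons (log2 ratio -0.78). The cohesin subunits Smc1a (116.6 and 88.9 CPM, 0.39) and Smc3 (109.3 and 88.8 CPM, 0.30) and the cohesin loader Nipbl (76.4 and 60.9 CPM, 0.32) were all within 2-fold as well. For Smc3 the sign was turned in the cells recorded before the last calendar year (-0.016). In MGE against CGE families, 0 of 14 regulators were past 2-fold (16.4% of all genes).

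The partners list holds genes for proteins that bind, cleave or signal from protocadherins. Of its 17 genes, 1 was past 2-fold higher in inhibitory neurons (7.31% of all genes) and 4 past 2-fold lower (10.9% of all genes), with a median of -0.29. Ptk2b, the kinase Pyk2, had 23.8 CPM in inhibitory and 588.1 CPM in excitatory neurons, a log2 ratio of -4.57. Ptk2, the focal adhesion kinase, had 125.0 CPM in inhibitory and 364.2 CPM in excitatory neurons (-1.54). Nlgn1, a neuroligin, had 69.6 CPM in inhibitory and 191.8 CPM in excitatory neurons (-1.45), and Wasf1, a WAVE complex subunit named here after its values were seen, 117.8 CPM in inhibitory and 242.5 CPM in excitatory neurons (-1.04; -0.84, within 2-fold, with t-types weighted equally). Ret, a receptor tyrosine kinase, was the one higher in inhibitory neurons, with 10.05 CPM against 0.624 CPM in excitatory neurons (2.77). In MGE against CGE families, 0 partners were past 2-fold higher (8.85% of all genes) and 3 lower (7.52%).

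At 34 °C the summed Pcdha1 level of Sst cells was close to that at 25 °C. Cells ran from 0 over a median of 282.1 to 1174 CPM at 34 °C (quartiles 159.8 and 438.8) and from 0 over a median of 253.4 to 1769 CPM at 25 °C (quartiles 55.3 and 445.4). The summed level was 313.5 CPM (110 cells) at 34 °C and 314.3 CPM (272 cells) at 25 °C, a log2 ratio of -0.00, and 0 of 1 member was past 2-fold, where 14.6% of genes were. Fewer Sst cells lacked a read at 34 °C. There 86 of 89 thinned cells (96.6%, 90.5 to 99.3%) had a read, and 198 of 237 (83.5%, 78.2 to 88.03%) at 25 °C. The 25 °C share was 89.7% (80.8 to 95.5%) before the last calendar year of the 25 °C recordings, which overlapped the 34 °C interval. In that year it was 80.5% (73.5 to 86.4%). In the other groups the shares at 34 and 25 °C were 100 and 91.5% in L5 IT_1, 83.3 and 84.1% in ET, and 100 and 89.7% in Pvalb cells. The 8 microglia markers summed to 183.2 CPM at 34 °C and 674.6 CPM at 25 °C, the 7 oligodendrocyte markers to 354.4 and 676.5 CPM, the 8 astrocyte markers to 244.9 and 346.3 CPM, and 4 oligodendrocyte precursor markers, 2 of them at 0 at 34 °C, to 5.70 and 25.3 CPM. Their part in the detected share was not tested.

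The other groups sampled at both temperatures were small. L5 IT_1 cells had 226.5 CPM at 34 °C (29 cells) and 188.2 CPM at 25 °C (61 cells), a log2 ratio of 0.27 (25.1% of genes past 2-fold). ET cells had 220.1 CPM at 34 °C (12 cells) and 204.4 CPM at 25 °C (48 cells), a log2 ratio of 0.11 (36.4%). Pvalb cells had 273.8 CPM at 34 °C (10 cells) and 352.9 CPM at 25 °C (286 cells), a log2 ratio of -0.37 (36.5%). The 34 °C cells came from 8 recording days. Those of the groups compared here were all recorded after the last calendar year of the 25 °C recordings. The study targeted Sst and excitatory neurons of cortical layer L5 at 34 °C, but sampled all layers at 25 °C. Temperature, blockers, day, recording period and targeted layer therefore cannot be told apart. With t-types weighted equally, the log2 ratio of Pcdha1 in Sst cells was -0.16.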

How the data were processed

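Exonic reads per gene were analysed in 1320 cells at 25 °C and 185 cells at 34 °C. The deposited values are raw counts, made by the authors from single-end reads of 75 bp with bcl2fastq 2.20, STAR 2.5.4b and zUMIs on mm10, without molecular identifiers; the annotation release of the files differs from the GENCODE vM21 used here for exons. PCR copies are not independent molecules, so intervals of levels cover the counting error of reads only. Total exonic counts per cell ran between 5 and 18172944 (median 1195999) at 25 °C and between 3 and 3463207 (median 1189390) at 34 °C. The 85 spike-in rows (4.69% of counts) were left out of CPM, and 9 columns that match no sample were not used. The intronic tables were not used.

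Groups came from the t-type labels. CPM was summed counts scaled to 1000000, ratios were log2 with a pseudocount of 1 CPM among genes with at least 1 CPM in either group, and "past 2-fold" meant a log2 ratio of at least 1 either way. Values per cell used cells with at least 10000 counts. Cells were thinned by random draws to 200000 counts, or to 500000. Intervals were exact Poisson on reads or exact binomial on cells (95%). Ratios of summed counts were also computed on simulated counts with known fold changes. All 50 genes with a true log2 ratio of 2, and all 50 with -2, were past 2-fold. At a true ratio of 1 it was 26 of 50, at -1 it was 23 of 50, and at 0 it was 1 of 4686. Cells were simulated independently, so the simulation cannot show what shared days or animals do to a ratio. Python 3.11.15, numpy 2.4.6, pandas 2.3.3 and scipy 1.17.1 were used.

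The members and gene lists were chosen with earlier results of these data known. The rule for named genes took the C-type members, the highest members of each group, the extremes of both contrasts, the leading member of each family, and up to 4 regulators and 4 partners with the largest absolute log2 ratio; with 1 member counted it reduced to Pcdha1 and the listed genes. Isoforms per cell and the β and γ levels, which had been planned, were not analysed here. Each of both recording periods (the last calendar year, and before it), means over cells, thinned counts, equal weights for t-types, another pseudocount, no filter and leaving out the top cell were tried as alternatives. No sequence is printed.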

Additional observations from a re-analysis of the deposited data

Results flagged for a closer look

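In groups of 4 to 10 cells, 2 of 40 t-type groups held a cell whose Pcdha1 level stood apart from the rest by Dixon's ratio, which flags about 1 group in 20 by chance. In L6 IT_1 at 25 °C the highest of 10 cells had 1300 CPM and the next 433.2 CPM. In Lamp5 Egln3_1 at 25 °C the highest of 9 cells had 907.2 CPM and the next 439.0 CPM.

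Cells without a t-type entered no group above and also held Pcdha1 reads. At 25 °C, 26 of 92 such cells had a read, and their sum gave 90.8 CPM, against 280.3 CPM in cells with a t-type and a limit of 0.0886 CPM that 3 counts over the group allow. The log2 ratio was -1.62, where the median of all genes was -0.97; 1 cell held 30.9% of the reads. In these cells the 8 microglia markers summed to 8691 CPM, against 778.6 CPM in cells with a t-type, and their part in the result was not tested. At 34 °C, 8 cells had no t-type and a median depth of 8.5 exonic counts; 1 of them held all 82 reads, a level of 64.1 CPM.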

How the results depend on the processing

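The log2 ratio of Pcdha1 in inhibitory against excitatory neurons, 0.59 as reported, was 0.85 before the last calendar year of the 25 °C recordings and 0.41 in it. It was 0.51 as the mean over cells, 0.47 in thinned cells, 0.65 with t-types weighted equally and 0.57 without the cell with the most reads. For MGE against CGE families (0.26) the same settings gave -0.46, 0.35, 0.29, 0.31, 0.21 and 0.23, so the sign was turned before the last year. For Sst cells at 34 °C against 25 °C (-0.00) the mean over cells gave 0.022, equal weights -0.16 and leaving out the top cell 0.043. For the quotient of Pcdha1 to Gm42416 in Pvalb against Vip cells (1.46) the value was 1.39 before the last year, 1.501 in it, 1.52 in thinned cells and 1.22 with equal weights, and it moved within counting error in the others. The count of 7 families past 2-fold against the other cells, 0 as reported, was 1 before the last year, where Vip rested on 6 cells (log2 ratio 1.16); Lamp5 (0.41, 8 cells) and CT (0.71, 1 cell) also turned sign there. No other setting moved a count of members past 2-fold off 0. Of 10 named genes under 6 alternatives each, 59 of 60 values kept their sign; Smc3 (0.30) was at -0.016 before the last year. Of the 5 past 2-fold, Wasf1 (-1.04) came to -0.84 with equal weights. The causes of these moves were not tested. All settings other than those for the inhibitory against excitatory level, for the counts of members and for the named genes were chosen after seeing the data. Exonic plus intronic counts, and every alternative for isoforms per cell and for the β and γ levels, were not run. No paired analysis was possible because the labels give groups no shared replicate numbers and name no animals, and the results come from no test; recording days that hold both groups are given as counts only.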
